A study of Bos taurus with 15 samples.

Results

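The serpins are the genes whose symbol begins with SERPIN in the gene list of this cattle series, 33 of the 27270 genes listed, and they were followed through the cells of the digestive organs. By the letter in the symbol, 12 belonged to clade A, 10 to clade B, 3 to clade E, 2 each to clades F and I, and 1 each to clades C, D, G and H. The series held 15 single-cell RNA libraries (10x Genomics, droplet based) from Holstein cattle. There were 11 newborn (NB) libraries. They covered the forestomach (reticulum and omasum), the abomasum, the gut, the liver and the salivary gland, where gut stands for the small intestine (duodenum, jejunum and ileum) and the large intestine (cecum, colon and rectum). The 4 adult (AD) libraries came from the duodenum and jejunum and from the cecum and colon. The NB tissues came from 3 calves, and which calf gave which library is not stated in the sources used here. The AD tissues came from 1 lactating cow, and rumen was not analysed here. Outer muscle layers had been removed from the wall before dissociation. The digestion differed by organ and by stage: AD duodenum and cecum went through a lamina propria kit and AD jejunum and colon through a multi-tissue kit, whereas NB tissues of the digestive wall were first stripped with EDTA and trypsin. After that, NB reticulum, omasum and abomasum had a mix with collagenases, hyaluronidase and dispase, and NB intestine had a kit. NB liver had collagenase and papain, and NB salivary gland collagenase and dispase. Stage, animal and digestion therefore cannot be told apart. Between the forestomach or abomasum, the gut and the liver, region and digestion cannot be told apart either.

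Serpins are protease inhibitors that act as bait: the target enzyme cuts an exposed loop, the serpin changes shape, and the enzyme stays trapped on it. Clade A, C and D members and SERPINF2 and SERPING1 are known as plasma proteins made by the liver that restrain elastase, thrombin, plasmin and complement, clade B members act mostly inside cells and in stratified epithelia, and SERPINE2 holds back thrombin and plasminogen activators around cells. A few members do not inhibit proteases: SERPINH1 is the collagen chaperone HSP47 of the endoplasmic reticulum, SERPINF1 is the secreted factor PEDF, and SERPINA6 carries corticosteroids.

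Of 172405 barcodes, 119798 passed the filters on genes, UMIs (unique molecules), mitochondrial share and doublets, 2636 to 11614 per library. Library totals ran from 17707625 to 129458578 UMIs, and the median kept barcode held 3532.5 to 8799 UMIs. Pairs of libraries shared 2 to 36 barcode sequences over the 105 pairs, at most 0.483% of the smaller library. Barcodes were sorted into 4 lineages by a UMI of 1 lineage marker and none of the others: EPCAM or KRT14 for epithelium (26509 barcodes), PTPRC for leukocytes (43004), COL1A2 for stroma (8954) and PECAM1 for endothelium (8341). Barcodes with no marker made up 2.01% to 39.9% of a library and those with markers of more than 1 lineage 3.72% to 26.9%, and both were left out of the lineages. The UMIs of all barcodes of a lineage in a library were summed and given as CPM (counts scaled to the same total), a level within that sum. Intervals in brackets are exact Poisson 95% intervals, which cover counting error alone. No tissue had a second library of the same stage, and therefore the values carry no test and no p-value. A gene was called higher or lower where it passed 2-fold, after adding 5 CPM, in every pair compared. Between regions a pair was any library of one and any library of the other, between stages AD and NB of the same tissue, and between lineages the lineage and another lineage of the same library. Genes at 10 CPM or more in at least 1 of the sums were compared. A gene that reached this on 1 side alone could be called only as higher there, so its direction follows from the minimum. Lineages with under 50 barcodes in a library gave values and no call.

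All 33 serpins had at least 1 UMI. In the epithelium 22 of the 33 reached 10 CPM in some library, in the endothelium 12, in the stroma 11 and in the leukocytes 10. By region (forestomach, abomasum, gut of both stages, liver and salivary gland), 6 serpins reached 10 CPM in all 5: SERPINE2, SERPINH1, SERPING1, SERPINB8, SERPINB6 and SERPINB1. Another 11 did so in 1 region: SERPINB5, SERPINB2 and SERPINB10 in the forestomach, SERPINB9 in the gut, and SERPINE3, SERPINC1, SERPIND1, SERPINA11, SERPINA3-7, SERPINA3-1 and SERPINF2 in the liver. SERPINB12, SERPINA1 and SERPINA3-3 reached it in the gut in AD libraries alone, beside 1 other region each. The 9 that reached it nowhere were SERPINI2, SERPINA7, SERPINA10, SERPINA6, SERPINA14, SERPINA12, SERPINA3-8, SERPINB13 and SERPINB7. Lineages with under 50 barcodes in a library were left out of these counts. This removed leukocytes in the forestomach, stroma in the liver, and epithelium and endothelium in the salivary gland, so the regions were not covered alike. The SERPINA3 genes are near-identical copies in cattle, so their reads can be split or lost between copies and the level of each is uncertain.

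**Figure D1:**
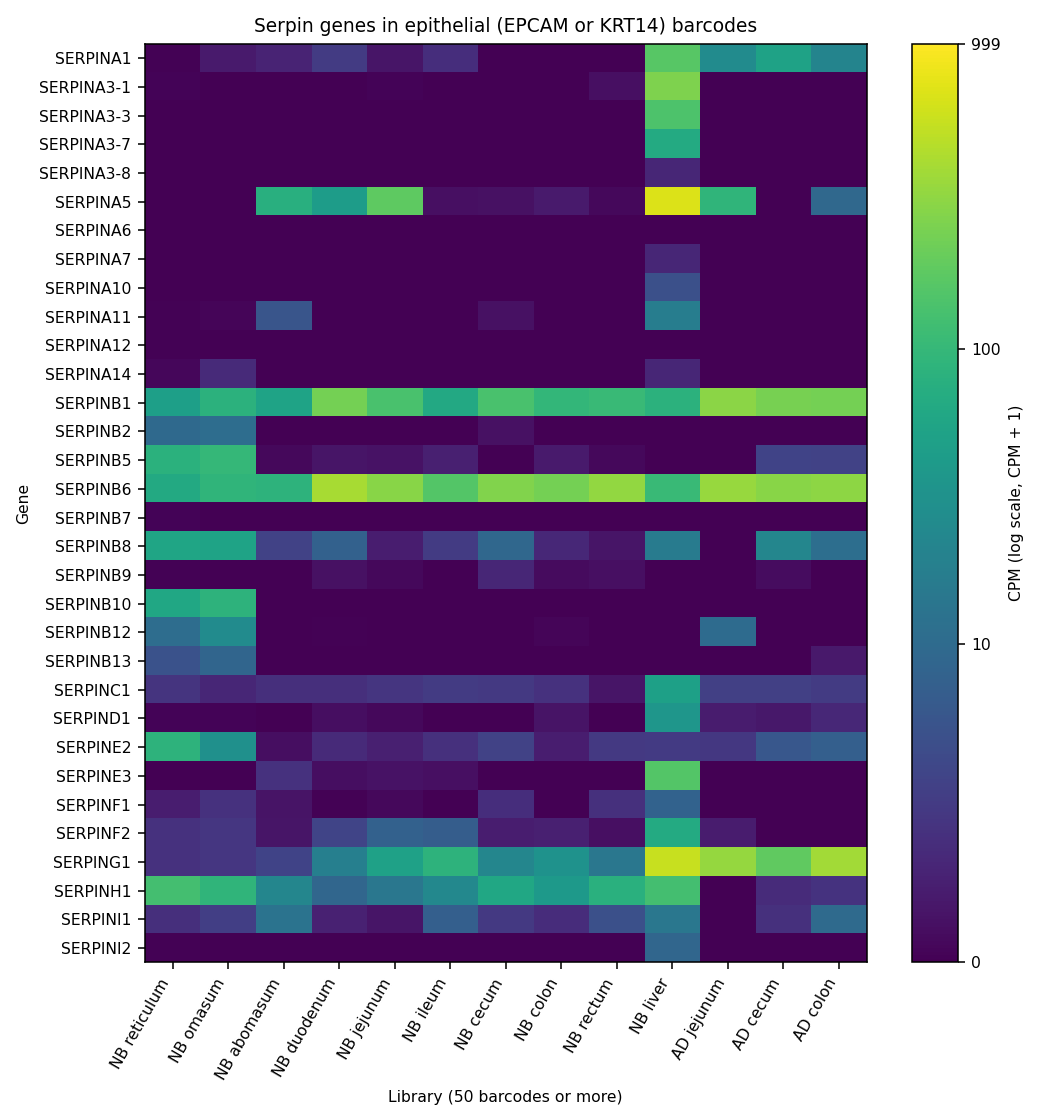
CPM of 32 serpins (rows) in epithelial barcodes of the 13 libraries with at least 50 of them (columns), with colour for CPM + 1 on a log scale. SERPINB1 and SERPINB6 run through every column, SERPINB5 and SERPINB10 mark the reticulum and omasum columns, and SERPINA1, SERPINA3-1, SERPINA3-3, SERPINC1 and SERPIND1 stand out in the liver column.

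In the NB gut (duodenum to rectum, 6 libraries) the stroma had the serpins that set a lineage apart. SERPING1 (ENSBTAG00000016267), the C1 inhibitor that blocks the complement proteases C1r and C1s, had 946 CPM in COL1A2 barcodes at the lowest, a median of 1528 and 2173 at the highest, against at most 362 in endothelium, 85.0 in epithelium and 8.99 in leukocytes. Every stromal value lay above every value of the other lineages. SERPINF1 (PEDF) had 14.4 CPM in stroma at the lowest, a median of 77.7 and 529 at the highest, and at most 2.998 in the other lineages. It varied along the gut far more than SERPING1 did, from 14.4 in jejunum (12.3–16.7) to 529 in cecum. SERPINB8, an inhibitor of furin-like enzymes, had 29.4 to 49.4 CPM in stroma with a median of 41.9, against at most 20.1 in endothelium and 9.03 in epithelium. These 3 were called higher in COL1A2 barcodes, 3 of the 11 serpins compared, where 3.58% of all genes were. SERPINF1 reached 10 CPM in no other gut lineage, so that it could be called for stroma alone. None of the 11 was called for the epithelium (2.24% of all genes), the leukocytes (1.2%) or the endothelium (2.11%). The smallest log2 differences over the gut were 2.17 for SERPING1, 1.60 for SERPINF1 and 1.12 for SERPINB8, and with 20 CPM added in place of 5 only SERPING1 stayed called. The SERPINB8 call was also lost with other lineages allowed and with thinning to 1000 UMIs.

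SERPINH1 was high in stroma and endothelium, without being called for a single lineage. It had 662 to 1091 CPM in gut stroma and 332 to 512 in gut endothelium, against 8.82 to 79.7 in epithelium and 2.99 to 34.3 in leukocytes. The stromal and endothelial ranges did not overlap, yet in duodenum, jejunum and ileum both lineages lay within 2-fold of each other. Of 15 other chaperones, enzymes and cargo factors of collagen, PLOD2, CRTAP and FKBP10 were called higher in gut stroma, where 3.58% of all genes were. SERPINE2 (protease nexin) was also unevenly placed in stroma, at 304 CPM in both duodenum and jejunum and 254 in ileum, against 48.2 to 81.6 in cecum, colon and rectum.

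SERPINB6 and SERPINB1, intracellular inhibitors of trypsin-like enzymes and of neutrophil elastase, were found in every lineage of the gut. SERPINB6 had 158 to 399 CPM in epithelium, 96.5 to 129 in stroma, 158 to 250 in endothelium and 53.4 to 78.5 in leukocytes. SERPINB1 had 63.3 to 238 CPM in epithelium, 85.3 to 105 in stroma, 115 to 164 in endothelium and 37.1 to 272 in leukocytes. The low leukocyte value of SERPINB1 was that of the ileum. Ileal leukocytes with a UMI of FLT3, a receptor of dendritic cells and early progenitors, held 297 CPM of SERPINB1 (31 barcodes) and those without it 29.7 (2249 barcodes). In duodenum the same division gave 241 and 181 CPM.

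Some of the proteases that serpins bind were called for a lineage. Of the 48 proteases listed, 41 were in the gene list and 26 could be compared between gut lineages. Of those called higher, 6 were in epithelium, F7, F10, ST14, PRSS8, TMPRSS2 and TMPRSS4, which are coagulation enzymes and membrane proteases (2.24% of all genes). In stroma C1R and C1S were called higher (3.58% of all genes), the enzymes that SERPING1 blocks, with 418 to 868 and 424 to 1010 CPM. None of the 9 serpin cofactors and receptors compared was called for any gut lineage.

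In the forestomach epithelium a group of clade B serpins stood out. The reticulum and omasum are lined by a stratified squamous epithelium, and the 2 NB libraries held 6132 and 9057 epithelial barcodes. SERPINB10 (ENSBTAG00000001102) had 60.5 CPM in reticulum (58.6–62.4) and 85.6 in omasum (83.7–87.6), and 0 UMIs in all 6 gut libraries. The reticulum value was 1503-fold above a limit of 3 counts over the 6 gut libraries together. That ratio leaves out the counting error of the reticulum value, and the limit of a single library is higher. SERPINB5 (maspin), a protein of keratinocytes and other surface epithelia, had 82.3 and 98.5 CPM in the forestomach and at most 0.816 in the gut. SERPINB12, found in skin and other surface epithelia, had 10.9 and 26.9 CPM against at most 0.106, and SERPINB2 (plasminogen activator inhibitor 2) had 9.73 and 10.8 against at most 0.361. Both forestomach libraries lay above all 6 gut libraries for each of the 4.

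SERPINB8 and SERPINE2 were also higher in the forestomach epithelium. SERPINB8 had 56.7 CPM in reticulum and 54.5 in omasum against 0.491 to 9.03 in the gut. SERPINE2 had 85.1 and 31.4 against 0.743 to 2.89. In the reverse direction, SERPING1 had 1.65 and 1.97 CPM in the forestomach and 14.4 to 85.0 in the gut. In all, 6 of the 12 serpins compared were called higher (5.32% of all genes) and SERPING1 alone lower (4.35% of all genes). The 6 called higher reached 10 CPM in the forestomach and in no gut library, so that their direction follows from the minimum. SERPING1 reached it in the gut alone, so that its direction follows from the minimum too. The SERPINB12, SERPINB2 and SERPING1 calls were lost with 20 CPM added, and the SERPINE2 call with other lineages allowed. SERPINB1 and SERPINB6 had 48.8 to 89.9 CPM in the forestomach, where SERPINB6 lay below the whole gut range and SERPINB1 overlapped it.

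In the RefSeq gene order of ARS-UCD2.0, an assembly other than the ARS-UCD1.2 of the counts, 22 of the 31 serpins matched by symbol lay in 5 runs of neighbours within 10 genes of each other. SERPINB5, SERPINB12, SERPINB7, SERPINB2 and SERPINB10 formed a run, and all of it but SERPINB7 was called higher in forestomach epithelium. SERPINB6, SERPINB9 and SERPINB1 formed another, and none of it was called there. SERPINB13 was placed in no run, and its highest value in any region was 8.43 CPM, under the minimum. Among the proteases, 18 could be compared in the epithelium. CTSV and KLK10, a cathepsin and a kallikrein of squamous epithelia, were called higher in the forestomach (5.32% of all genes), and F7, F10, CTSS, CTSH, TMPRSS2 and TMPRSS4 were called lower (4.35%).

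Within the forestomach epithelium, barcodes without a UMI of KRT5, the keratin of the basal and lower layers, had more of several clade B serpins. They were few, 28 in reticulum and 54 in omasum, against 6104 and 9003 with KRT5, and their median UMI counts were 2762.5 and 5248.5 against 9671 and 9171. SERPINB12 had 234 and 307 CPM without KRT5 and 10.4 and 25.6 with it. SERPINB2 had 135 and 157 CPM without and 9.41 and 10.1 with. SERPINB13 (headpin), another squamous serpin, had 80.0 and 31.9 without and 4.48 and 8.32 with. SERPINB1 had 172 and 378 without and 48.5 and 81.9 with. These were the 4 of 14 serpins compared that were called higher without KRT5 (5.55% of all genes). The reverse was seen for SERPINE2, with 85.3 and 31.6 CPM with KRT5 and 6.15 and 4.91 without, where 7.07% of all genes were called higher with it. SERPINB13 reached 10 CPM only without KRT5 and SERPINE2 only with it, so that their directions follow from the minimum. SERPINB10 was close on both sides, at 60.5 and 85.7 CPM with and 67.7 and 83.5 without, with intervals that overlapped. A division by KRT4, a keratin of upper layers of moist squamous epithelia, gave SERPINB12 12.2 and 27.8 CPM with KRT4 against 5.81 and 9.19 without it, and SERPINB2 11.3 in both libraries against 3.45 and 1.65. Neither was called, as the fold of 2 was not reached in both libraries (0.605% of all genes were called higher with KRT4).

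**Figure D2:**
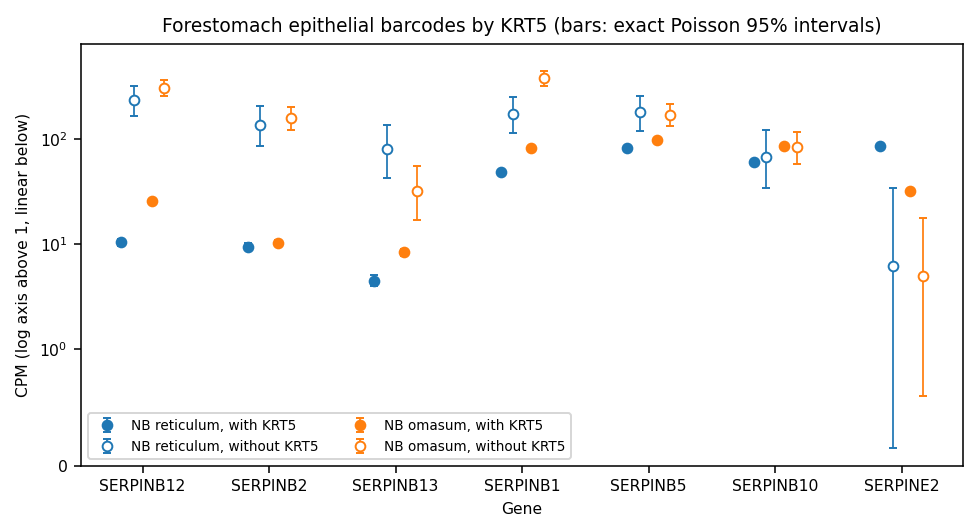
CPM of forestomach serpins in epithelial barcodes with and without a UMI of KRT5 in NB reticulum and omasum, on a log axis, with exact Poisson 95% intervals. SERPINB12, SERPINB2, SERPINB13 and SERPINB1 lie higher without KRT5 in both libraries, SERPINE2 lies higher with it, and SERPINB10 is level.

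The abomasum, the glandular stomach, shared SERPINA5 with the small intestine. SERPINA5 (ENSBTAG00000004063), the protein C inhibitor, had 76.1 CPM in abomasal epithelium (73.9–78.4), 44.4 in duodenum (42.3–46.6) and 178 in jejunum (170–185). In ileum, cecum, colon and rectum it had 0.164 to 0.637 CPM, and in reticulum and omasum 0. The duodenum and jejunum thus lay well above the ileum, although all 3 are small intestine. No serpin was called between small and large intestine, 0 of the 6 compared (0.483% of all genes higher and 1.23% lower). Within the small intestine, barcodes without OLFM4, a crypt stem cell gene, had more SERPINA5 in jejunum (228 CPM against 48.4 with it) and in duodenum (49.3 against 27.4).

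Against the gut, the abomasal epithelium had no serpin called higher among 7 compared (1.63% of all genes), and SERPING1 was called lower, at 3.04 CPM against 14.4 to 85.0 (10.2% of all genes). SERPING1 reached 10 CPM in the gut alone, so that the direction of this call follows from the minimum. That call was lost with 20 CPM added and with median-of-ratios scaling, under which 2 serpins were called higher and none lower. That scaling moved the median of all genes by 0.63 on the log2 scale and the share of higher calls among all genes called from 13.9% to 54.3%. Abomasal barcodes with a UMI of ATP4A, the acid pump of parietal cells, had 124 CPM of SERPINA5 and 20.3 of SERPINI1, against 25.0 and 4.87 in those without it. These were the 2 of 5 serpins called higher with ATP4A (1.98% of all genes). SERPINI1 reached 10 CPM only with ATP4A, so that its direction follows from the minimum. SERPINA11, under the minimum, had 5.26 CPM with ATP4A and 5.09 without it. Barcodes with CHGA, a gene of endocrine cells, had 52.0 CPM of SERPINI1 (neuroserpin, an inhibitor of tissue plasminogen activator in neurons), 12.5 of SERPINA1 and 11.4 of SERPINF2. Barcodes without CHGA had 11.4, 0.615 and 0.0904 CPM, and the 3 were called of 7 compared (3.19% of all genes). SERPINA1 and SERPINF2 reached 10 CPM only with CHGA, so that their direction follows from the minimum. SERPINA5 also appeared in the other abomasal lineages, at 13.9% of its epithelial level in leukocytes, 45.3% in stroma and 38.5% in endothelium. The secreted products CYM and PGA5 stood at 5.90% and 5.50% in leukocytes, 12.1% and 9.19% in stroma, and 7.18% and 6.63% in endothelium. Free RNA as the source of SERPINA5 there was not tested.

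In the stroma of the forestomach, SERPINI1 (ENSBTAG00000012708) differed from the gut. It had 231 CPM in reticulum (170–306, 48 UMIs in 82 barcodes) and 438 in omasum (376–507, 178 UMIs in 208 barcodes). Gut stroma had 0.672 to 2.75 CPM and abomasal stroma 7.66. The lowest forestomach value was 83.9-fold above the highest gut value, and SERPINI1 was the 1 of 9 serpins called higher (1.42% of all genes). None was called lower (1.98% of all genes). SERPINI1 reached 10 CPM in forestomach stroma and in no gut library of that lineage, so that its direction follows from the minimum. Omasal stroma without ACTA2, the smooth muscle actin, held 679 CPM of SERPINI1 and stroma with ACTA2 32.9. With PDGFRA, a fibroblast receptor, it held 779 CPM and without it 175, and in reticulum the values were 320 and 143 with overlapping intervals. SOX10, a glial gene, was at 0 in both stromal libraries. Epithelial markers summed to 1139 and 2046 CPM in forestomach stroma against 12.7 to 77.7 in gut stroma, and their part in these values was not tested. In forestomach epithelium SERPINI1 had 1.57 and 2.65 CPM.

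SERPINF1 was another stromal serpin with a wide range between organs. Its level was 567 CPM in reticulum, 246 in omasum, 297 in abomasum and 1452 in salivary gland (1358–1551), against 14.4 to 529 in the gut. In all 6 gut libraries SERPINF1 was lower in stroma with ACTA2 than without it. The pairs were 3.88 and 162 CPM in duodenum, 5.39 and 25.1 in jejunum, 2.92 and 68.1 in ileum, 198 and 859 in cecum, 37.0 and 119 in colon, and 188 and 740 in rectum. It was the 1 of 9 serpins called lower with ACTA2, where 0.22% of all genes were. The cecal and rectal stroma with ACTA2 still had more SERPINF1 than small intestinal stroma without it.

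The endothelium carried SERPINH1 and SERPING1 in an opposed pattern. PLVAP, a protein of fenestrated capillaries and venules, split the PECAM1 barcodes of the 6 gut libraries. SERPINH1 was higher with PLVAP in each: 384 against 152 CPM in duodenum, 531 against 179 in jejunum, 545 against 81.3 in ileum, 507 against 213 in cecum, 466 against 111 in colon and 585 against 252 in rectum. SERPING1 was lower with PLVAP in each, with 33.9 to 92.0 CPM against 210 to 1079 without. SERPINE2 followed SERPING1, with 2.24 to 8.85 CPM with PLVAP and 39.5 to 72.8 without. Of the 10 serpins compared, SERPINH1 was called higher (3.27% of all genes) and SERPING1 and SERPINE2 lower (3.95%). SERPINE2 reached 10 CPM only without PLVAP, so that its direction follows from the minimum. Median UMI counts were close on both sides in ileum (5572 and 5577.5) and differed most in jejunum (4356 with PLVAP and 6985 without).

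Endothelial barcodes with PROX1, the regulator of lymphatic identity, had more SERPING1, SERPINE2 and SERPINB6 in the 5 gut libraries with enough of them. SERPING1 had 509 to 1545 CPM with PROX1 and 82.3 to 162 without. SERPINE2 had 35.9 to 139 CPM with and 8.78 to 14.5 without. SERPINB6 had 410 to 503 with and 127 to 195 without, so that no values overlapped. These 3 of 9 were called, where 2.66% of all genes were. Their abomasal values with and without PROX1 were 610 and 71.0 CPM for SERPING1, 102 and 13.7 for SERPINE2, and 418 and 156 for SERPINB6. SERPINA5 was not called with PLVAP over the gut. It was past 2-fold higher with PLVAP in 5 of the 6 libraries, as with 18.1 CPM against 1.06 in ileum, where the epithelium held 0.326, and in reticulum the values were 8.70 with and 23.9 without, from 6 and 2 UMIs with overlapping intervals.

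**Figure D3:**
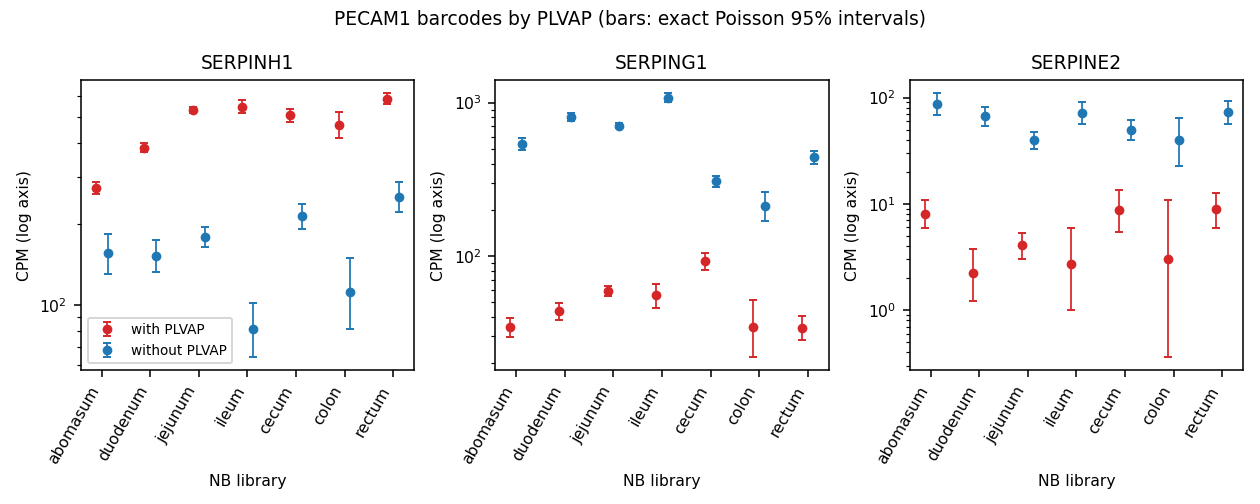
CPM of SERPINH1, SERPING1 and SERPINE2 in PECAM1 barcodes with and without a UMI of PLVAP, in NB abomasum and the 6 NB gut libraries, on a log axis with exact Poisson 95% intervals. In all 6 gut libraries SERPINH1 lies higher with PLVAP, and SERPING1 and SERPINE2 lie higher without it.

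Forestomach endothelium had less SERPING1 than gut endothelium. It held 10.3 CPM in reticulum and 22.6 in omasum, against 101 to 362 in the gut. Of 10 serpins compared it was called lower (2.28% of all genes), and none was called higher (0.597%). SERPINH1 reached 651 CPM in reticulum and 453 in omasum, against 332 to 512 in the gut.

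The liver epithelium brought in the plasma serpins, although its barcodes were few: 139 with EPCAM or KRT14. SERPINA5 had 688 CPM (635–744), SERPING1 552 (504–602) and SERPINA3-1, an antichymotrypsin relative, 259 (227–294). SERPINA1 (ENSBTAG00000018843), alpha-1-antitrypsin, had 167 CPM (141–196) and at most 2.36 in gut epithelium. SERPINE3, whose target is not known, had 158 (133–186). SERPINA3-3 had 144 CPM, SERPINA3-7 and SERPINF2 (alpha-2-antiplasmin) 66.3 each, SERPINC1 (antithrombin) 49.8, SERPIND1 (heparin cofactor 2) 36.5 and SERPINA11 17.7. These 11 of the 17 serpins compared were called higher than in gut epithelium, where 13.4% of all genes were, and none was lower (2.62%). Of the 11 called, 9 reached 10 CPM in liver and in no gut library, so that their direction follows from the minimum. With median-of-ratios scaling the share of higher calls among all genes called went from 83.7% to 64.4%, and all 11 stayed called. SERPINA3-3 had 0 UMIs in NB gut epithelium and lay 3572-fold above a limit of 3 counts over the 6 gut libraries together. SERPINA3-7, also at 0 UMIs there, lay 1649-fold above it. These ratios leave out the counting error of the liver values, and the limit of a single library is higher. SERPIND1, SERPINF2 and SERPINA3-7 were not called when barcodes over 10% mitochondrial UMIs were dropped, nor SERPINA11 with 20 CPM added. SERPINA1, SERPINA11, SERPINA5, SERPINA3-7 and SERPINA3-3 belong to the same run of 10 neighbours. The rest of that run, SERPINA10, SERPINA6, SERPINA14, SERPINA12 and SERPINA3-8, reached 10 CPM in no region.

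The plasma serpins did not move as 1 block within these barcodes. The 105 barcodes with KRT19, a bile duct keratin, and the 34 without it were compared after the values had been seen. SERPINA3-1 had 36.0 CPM with KRT19 and 1339 without, SERPINA3-3 29.3 and 699, SERPINA1 78.7 and 595, SERPINA3-7 17.3 and 304, and SERPINF2 30.7 and 239. SERPIND1 had 14.7 and 142 CPM, SERPINC1 33.3 and 129 with intervals apart. In the other direction SERPINA5 had 751 CPM with KRT19 and 382 without, SERPING1 585 and 388, and SERPINH1 139 and 58.2. SERPINE3 had 168 and 110 with overlapping intervals. In all, 10 of 19 serpins were called lower with KRT19 (12.2% of all genes), and SERPINH1 and SERPINB8 higher (18.4%). Of these, SERPINA10 and SERPINF1 reached 10 CPM only without KRT19 and SERPINB8 only with it, so that their directions follow from the minimum. A division by ALB, the albumin of hepatocytes, set 100 barcodes against 39, and 9 of 16 serpins were called higher with it (13.5% of all genes). Of these, SERPINC1, SERPIND1, SERPINA11, SERPINA3-7, SERPINA3-1 and SERPINF2 reached 10 CPM only with ALB, so that their direction follows from the minimum. SERPINA3-1 had 322 CPM with ALB and 0 UMIs without, and SERPINA1 had 205 and 11.2. SERPINA5 was higher with ALB too, at 769 and 358 CPM, although it was lower without KRT19. SERPINE3 lay at 167 and 123.

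**Figure D4:**
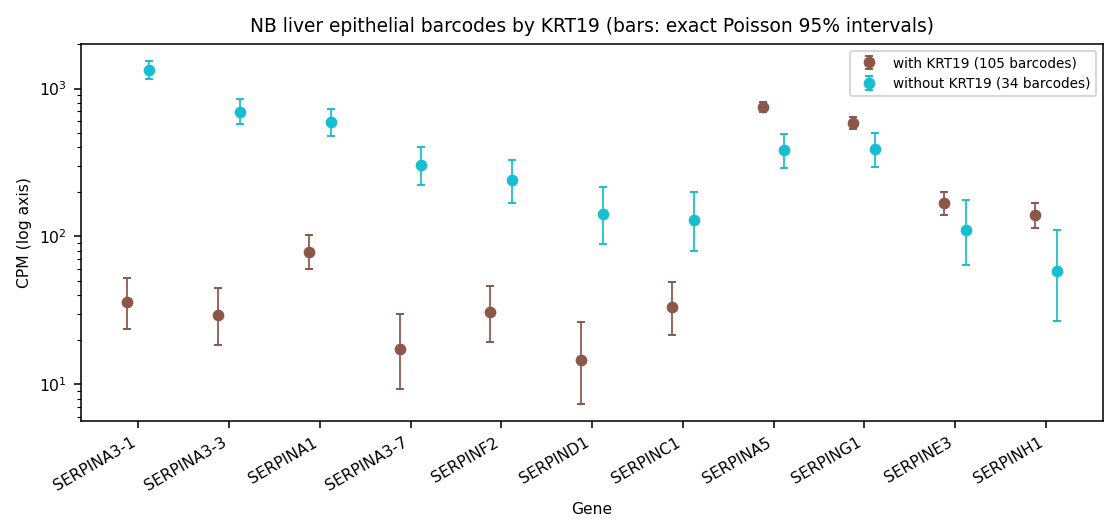
CPM of 11 serpins in NB liver epithelial barcodes with (105) and without (34) a UMI of KRT19, on a log axis with exact Poisson 95% intervals. The clade A3 genes, SERPINA1, SERPINF2, SERPIND1 and SERPINC1 lie higher without KRT19, and SERPINA5 and SERPING1 lie higher with it.

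The 2705 liver barcodes with none of the lineage markers also held plasma serpins. They had 249 CPM of SERPINA1, 209 of SERPINA3-1, 115 of SERPINA3-3, 49.5 of SERPINA3-7, 28.7 of SERPINC1, 27.5 of SERPINF2, 24.8 of SERPIND1 and 16.8 of SERPINA5. SERPINA5 was thus 688 CPM in the epithelial barcodes and 16.8 in these, while SERPINA1 was the higher here. The hepatocyte markers ALB, APOA1, TTR, AHSG and FGB summed to 64222 CPM in the epithelial barcodes, 1866 in those without a marker, 157 in endothelium and 104 in leukocytes. Of the proteases, PLG (155 CPM), F2 (105), PROC (155), C1R (44.2), C1S (79.6), CTSV and HPN were called higher in liver epithelium, 7 of the 23 compared (13.4% of all genes), and TMPRSS4 was called lower (2.62%). They include the enzymes that SERPINF2, SERPINC1, SERPINA5 and SERPING1 inhibit.

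SERPINA1 and SERPINA3-1 were also found in the liver's leukocytes and endothelium. SERPINA1 had 19.0 CPM in 6536 PTPRC barcodes (17.6–20.4) and 28.7 in 179 PECAM1 barcodes (19.5–40.7), and 0 UMIs in those lineages of the gut. It lay 413-fold in leukocytes and 342-fold in endothelium above a limit of 3 counts over the 6 NB gut libraries together. SERPINA3-1 had 10.3 and 11.1 CPM, 224-fold and 132-fold above the same limits. These ratios leave out the counting error of the liver values, and the limit of a single library is higher. SERPINA1 and SERPINA3-1 were the 2 of 8 serpins called higher in leukocytes (0.912% of all genes, and 0.332% lower) and 2 of 11 in endothelium (5.41%). Both reached 10 CPM in liver and in no NB gut library of these lineages, so that their direction follows from the minimum. In leukocytes both calls were lost with 20 CPM added and 1 of them under each of 6 other settings, and in endothelium the SERPINA3-1 call was lost with 20 CPM added, as was that of SERPINB6 given next. Hepatocyte markers stood at 104 and 157 CPM in the same barcodes, and their part in these levels was not tested. In endothelium SERPINH1 was lower in liver, at 33.3 CPM against 332 to 512 in the gut, and SERPINB6 at 69.4 against 158 to 250 (2 of 11, with 7.36% of all genes lower). The SERPINB6 call was also lost with the mean of barcodes and with thinning. Endothelial markers summed to 1215 CPM in the liver PECAM1 barcodes against 4033 to 5007 in the gut, and leukocyte markers to 6525 against 1655 to 4559. Endothelial cells with less SERPINH1 and fewer endothelial cells among these barcodes cannot be told apart from the sums.

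In the AD gut, leukocytes carried more SERPINE2 (ENSBTAG00000008717). AD duodenum had 189 CPM (184–194) where NB duodenum had 4.56. The jejunum had 80.8 CPM in AD and 2.95 in NB, the cecum 201 against 11.8, and the colon 197 against 27.0. It was the 1 of 7 serpins called higher in AD in all 4 tissues (3.36% of all genes), by at least 2.66 on the log2 scale. SERPINH1 was called lower, with 1.25 to 4.09 CPM in AD against 11.1 to 34.3 in NB (2.04% of all genes). It reached 10 CPM in NB alone, so that its direction follows from the minimum. The call was lost with 20 CPM added, 2 UMIs of the marker, other lineages allowed or no upper limit on genes. Median-of-ratios scaling kept both calls and took the share of higher calls among all genes called from 62.2% to 49.3%. The leukocytes differed in make-up between stages: CD3E, a T cell gene, was found in 5518 of 6708 AD duodenal leukocytes and 33 of 489 NB ones, and in 6432 of 6788 and 509 of 1375 in colon.

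SERPINE2 followed CD3E at both stages. With CD3E it had 247, 173, 223 and 213 CPM in AD duodenum, jejunum, cecum and colon, and without it 14.5, 2.5, 12.1 and 11.9. In the 6 NB gut libraries it had 48.2 to 120 CPM with CD3E and at most 5.8 without. It was called higher with CD3E in both sets (3.81% of all genes in AD, 1.35% in NB). In the NB gut SERPINE2 reached 10 CPM only with CD3E, so that its direction there follows from the minimum. The AD values with CD3E all lay above the NB ones. NB salivary leukocytes, of which 1342 of 1720 had CD3E, held 131 CPM of SERPINE2, with 158 in those with CD3E and 13.1 in those without. NB liver leukocytes held 92.6 with CD3E and 4.3 without.

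SERPINB1 was called higher with FLT3 in AD leukocytes. In AD duodenum, jejunum, cecum and colon it had 183, 379, 397 and 311 CPM with FLT3 and 63.7, 130, 57.4 and 70.3 without (3.06% of all genes were called). In NB the 4 tissues had 241, 271, 387 and 285 CPM with FLT3 and 181, 218, 211 and 51.9 without. Over the 6 NB gut libraries 0 of 8 serpins were called higher with FLT3 (0.354% of all genes). The difference between the stages was not tested. SERPING1 was called higher in AD leukocytes with C1QA, a macrophage complement gene (5.29% of all genes), at 51.7 to 102 CPM against 0.689 to 2.86. SERPING1 reached 10 CPM only with C1QA there, so that its direction follows from the minimum. SERPINI1 peaked among NB gut leukocytes in ileum, at 27.2 CPM, where barcodes with the B cell gene MS4A1 held 31.5 and those without it 10.6, although it was not called with MS4A1 over the NB gut. In the AD gut SERPINI1 was called higher with CD3E in the same comparison as SERPINE2, at 19.6, 8.36, 31.2 and 15.3 CPM in duodenum, jejunum, cecum and colon against 4.92, 1.03, 11.3 and 3.08 without it.

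**Figure D5:**
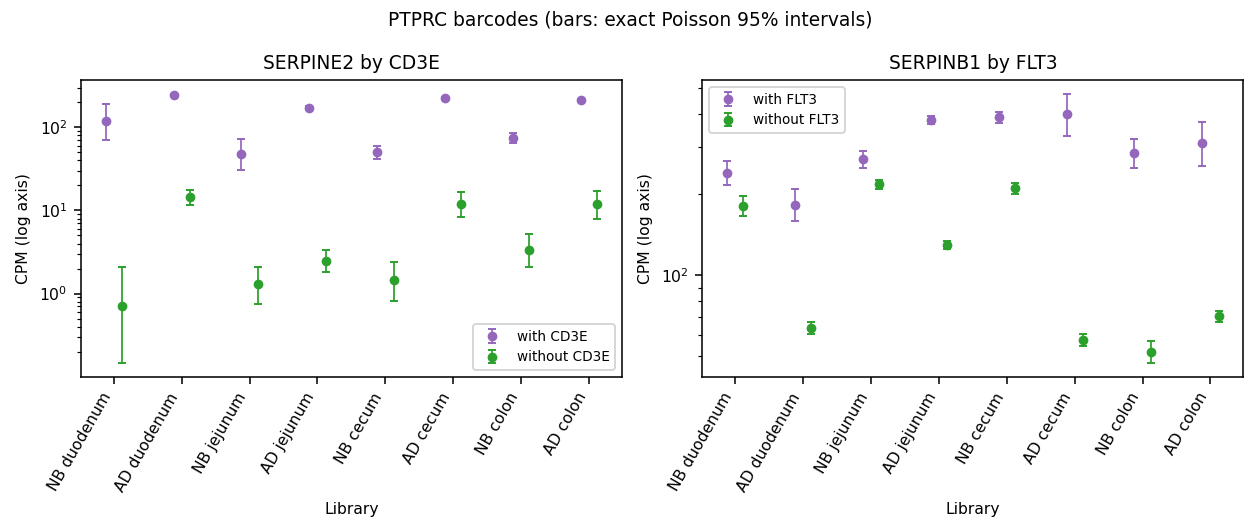
CPM of SERPINE2 in PTPRC barcodes with and without CD3E, and of SERPINB1 with and without FLT3, in NB and AD duodenum, jejunum, cecum and colon, on a log axis with exact Poisson 95% intervals. SERPINE2 lies higher with CD3E and SERPINB1 higher with FLT3 in all 8 libraries, and the AD values of SERPINE2 with CD3E lie above the NB ones.

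Of the 17 proteases compared in leukocytes, GZMA and GZMB, granule enzymes of cytotoxic lymphocytes, were called higher in AD (3.36% of all genes) and PLAU (urokinase, a target of SERPINE2) and CTSH lower (2.04%). GZMA had 69.9, 283, 387 and 607 CPM in AD duodenum, jejunum, cecum and colon and 2.05, 2.36, 21.1 and 0.754 in NB. GZMB is listed under 2 gene identifiers, and 1 of them was not higher in AD in every tissue, with 72.8 CPM in AD cecum against 412 in NB cecum.

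AD gut epithelium had more SERPING1 and SERPINA1. SERPING1 had 333 CPM in AD jejunum (304–364), 186 in cecum (172–201) and 379 in colon (351–410), against 51.6, 23.1 and 33.0 in NB. SERPINA1 had 27.4, 52.3 and 21.7 CPM in AD and at most 2.36 in any NB gut library. These were the 2 of 9 serpins called higher in all 3 tissues (2.64% of all genes). SERPINA1 reached 10 CPM in AD alone and SERPINH1, given next, in NB alone, so that their directions follow from the minimum. SERPINH1 was lower, with 0, 1.36 and 1.76 CPM against 14.5, 61.0 and 39.4 (1.31% of all genes), a call that was lost with 20 CPM added. Median-of-ratios scaling kept these calls and took the share of higher calls among all genes called from 66.9% to 41.7%. When barcodes with markers of other lineages were allowed, SERPING1 was no longer higher, at -1.27 on the log2 scale in the lowest tissue, and SERPINA1 was at 0.08. The SERPING1 call was also lost with doublets not removed. In AD cecum, epithelial barcodes without OLFM4 had 160 CPM of SERPINA1 and those with it 1.60, and in colon 33.2 and 5.59 (4.56% of all genes lower with OLFM4). SERPINA1 reached 10 CPM only without OLFM4, so that this direction follows from the minimum. Barcodes with POU2F3, a regulator of tuft cells, were too few to be called: 10 in AD cecum held 44 UMIs of SERPINA1, or 1325 CPM (963–1779), against 40.6 in the rest. SERPINB12 had 15 UMIs in AD jejunum, 10.3 CPM (5.75–16.9).

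The AD stroma could be compared in colon only, with 147 AD and 188 NB barcodes. SERPING1 had 3775 CPM in AD (3659–3895) and 946 in NB (893–1002), SERPINF1 465 (425–508) and 61.8 (48.8–77.3), and SERPINE2 153 (130–178) and 48.2 (36.8–62.0). Over the whole NB gut, stroma held 946 to 2173 CPM of SERPING1, 14.4 to 529 of SERPINF1 and 48.2 to 304 of SERPINE2. The AD values of SERPINF1 and SERPINE2 lay within these ranges, and NB colon was the lowest library for SERPING1 and SERPINE2. SERPINA3-3 had 11.5 CPM in AD (12 UMIs) and 0 UMIs in NB, 4.75-fold above a limit of 3 counts, and this call was lost with 20 CPM added. These 4 of 9 were called higher and none lower, where 10.4% of all genes were higher and 6.84% lower. SERPINA3-3 reached 10 CPM in AD alone, so that its direction follows from the minimum. C1R at 1708 and C1S at 2527 CPM were among the proteases called higher in AD colon stroma. SERPINH1 had 543 CPM in AD and 723 in NB.

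AD PECAM1 barcodes had lower SERPINH1, SERPING1, SERPINA5 and SERPINB9 in duodenum, jejunum and colon, 4 of 9 compared, where 10.8% of all genes were lower. None was higher (1.49% of all genes). SERPINH1 had 4.14, 0 and 108 CPM in AD and 332 to 512 in the NB gut, and SERPING1 6.62, 28.3 and 23.9 against 101 to 362. SERPINA5 and SERPINB9 reached 10 CPM in NB alone, so that their direction follows from the minimum. Their intervals were not all apart, and both calls were lost with 20 CPM added and with other lineages allowed. The endothelial markers summed to 171 and 167 CPM in AD duodenum and jejunum and 2747 in AD colon, against 4033 to 5007 in the NB gut, and CDH5, KDR and CLDN5 were at 0 in AD jejunum. The label of endothelium for AD duodenum and jejunum thus rests on PECAM1 alone, and leukocyte markers there and in AD colon summed to 2105 to 13674 CPM. In AD colon, PECAM1 barcodes with PLVAP had 280 CPM of SERPINH1 and those without it 0. In the NB gut libraries the values were 384 to 585 with PLVAP and 81.3 to 252 without. Lower SERPINH1 in endothelial cells and fewer such cells among the barcodes cannot be told apart from the sums, and the part of each was not tested. The SERPINB9 call was lost with median-of-ratios scaling, under which the share of higher calls in AD stroma and endothelium together went from 40.2% to 52.9%. The SERPING1 call was lost under 5 settings, and with doublets not removed its difference was 0.03 on the log2 scale in the highest of the 3 tissues. AD cecum, under the minimum with 46 barcodes, had 205 CPM of SERPING1 against 181 in NB cecum.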

How the data were processed

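Single-cell 3′ libraries were measured from 15 cattle tissue samples. According to the submitters' processing notes, the authors used Cell Ranger 3.1.0, and their methods name the ARS-UCD1.2 assembly. The annotation release is not given in the sources used here. The deposited matrices hold raw UMI counts per gene and barcode. A barcode was kept if it had 500 to 4000 genes, less than 50000 UMIs and less than 40% of them from the 13 mitochondrial genes. Doublets were scored by simulated pairs in principal component space, and 9884 barcodes with the top scores were dropped, at 0.8% per 1000.

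The lineage rule, the CPM scale, the added 5 CPM and the call are given with the results. Within a lineage, barcodes with and without a second marker gene were summed apart where each side had at least 20. Named values cover the serpins called in a comparison, the 6 highest of each lineage and region, and those at 10 CPM or more in 1 region alone, plus a list of proteases, cofactors, collagen chaperones and cell markers. Serpins and lists were chosen with earlier results of these data known. The KRT19 and ALB division of liver barcodes was added after seeing the data.

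Alternatives covered the added CPM, fold, low-value filter, marker rule, doublets, barcode filters, scaling, thinning to 1000 UMIs and barcode minimum (13 in all). Total UMIs per library set the precision, given as exact Poisson intervals (python 3.11.15, numpy 2.4.6, scipy 1.17.1, pandas 2.3.3, scikit-learn 1.9.0, matplotlib 3.10.9). Serpin sequences are not shown here, and 1 serpin is not reported here by its values, though counts over the family include it.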

Additional observations from a re-analysis of the deposited data

Results flagged for a closer look

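Barcodes with none of the lineage markers, which no comparison used, held forestomach serpins. SERPINB12 was at 43.7 CPM in the 274 such barcodes of NB reticulum and at 94.8 CPM in the 201 of NB omasum, and SERPINB2 was at 41.0 CPM in NB omasum. These values lie above the limit that 3 counts allow.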

How the results depend on the processing

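No paired analysis was possible because no model was fitted that could hold a replicate block. The calls themselves compare AD with NB within each tissue and lineages within each library. No replicate could be left out. Of 156 counts of called serpins under an alternative, 115 stayed within 1.5 times the reported count. Of 480 values of single serpins, 431 kept their direction and side of the threshold, and 20 of 44 calls were kept under every alternative that changes values.

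With 20 CPM added the counts became 1 for gut lineages (from 3), 4 for forestomach epithelium (7), 0 for abomasum (1), 1 for forestomach endothelium (2), 2 for liver endothelium (4), 0 for liver leukocytes (2), 1 for AD against NB leukocytes (2) and 5 for AD against NB stroma and endothelium (8). With a fold of 4 they were, in that order, 1, 4, 0, 0, 2, 1, 1 and 1. With 2 UMIs of the marker, forestomach endothelium, liver leukocytes and AD against NB leukocytes each had 1, and AD against NB stroma and endothelium 4. With other lineages allowed, abomasum had 2, forestomach stroma 5 (from 1), forestomach endothelium 4, liver leukocytes 1, AD against NB leukocytes 1, and stroma and endothelium 5. With no upper limit on genes, abomasum had 2, small against large intestine 1 (from 0), and forestomach endothelium and AD against NB leukocytes 1. Under 10% mitochondrial UMIs gave 2 for abomasum, 1 for small against large intestine and 1 for liver leukocytes. Median-of-ratios scaling, which moved the median of all genes by -0.49 to 0.72 on the log2 scale, gave 2 for abomasum and 1 each for forestomach endothelium and liver leukocytes. Adding 1 CPM gave 2 for abomasum, the mean of barcodes and thinning each gave 1 for forestomach endothelium, and keeping doublets gave 7 for liver endothelium and 1 for liver leukocytes.

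SERPING1 in AD against NB endothelium changed sign with doublets kept (0.032) and with at least 20 barcodes (0.18), SERPINB9 there when thinned (0.28), and SERPING1 in AD against NB epithelium with other lineages allowed (-1.27). The cause was not tested. Epithelial barcodes were few in liver and AD gut, which widens the intervals of low serpins there.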
